A study of Mus musculus with 6 samples.

Results

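The neurotrophins and glial cell line-derived neurotrophic factor (GDNF) are secreted survival signals, and 8 genes of these families were followed here: the ligands Bdnf, Ntf3 and Gdnf and the receptors Ntrk2, Ntrk3, Ngfr, Ret and Gfra1. They were picked by gene symbol out of the 24421 symbols of the count table. All 8 had counts in every sample and were among the 15988 genes tested. RNA came from cochlear explants of wild-type mice at postnatal day 2, with 3 control samples and 3 samples treated with neomycin, an aminoglycoside antibiotic toxic to hair cells (HCs). Explants were kept for 12 h before neomycin was given at 1 mM for 6 h, and both groups then stayed 5 days in medium containing EdU, a label of DNA synthesis, at 10 µM. The sample labels carry one protocol text, neomycin included, for all 6 samples, and the group was taken from the treatment label. Each sample pooled between 6 and 8 cochleae, and no label says whether samples of a group came from separate litters or cultures, so p-values measure the spread between these samples, which may be technical. By the study's methods the modiolus, which holds the cell bodies of spiral ganglion neurons, the anlage of the stria vascularis and the tectorial membrane had been cut away. No label gives a batch or a date.

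In the cochlea, BDNF and neurotrophin-3 (NT-3, the product of Ntf3) made by HCs and supporting cells (SCs) act on spiral ganglion neurons, which carry the receptor tyrosine kinases TrkB (Ntrk2) and TrkC (Ntrk3). The receptor p75 (Ngfr) binds all neurotrophins and is found on pillar cells and Schwann cells of the early postnatal ear. GDNF binds the membrane-anchored co-receptor GFRα1 (Gfra1), and the pair then engages the receptor tyrosine kinase RET.

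Of the 8 genes, Bdnf and Ngfr fell and Ntrk2 and Gfra1 rose after neomycin at an adjusted p under 0.05 in edgeR's quasi-likelihood test. Ntf3, Ntrk3, Gdnf and Ret did not pass. These 4 of 8 compare with 29.0% of all genes tested that passed the same rule, 16.1% lower and 12.9% higher. With a fold change over 1.5 also required, the rule for differential expression, Bdnf and Ngfr remained, both lower, against 8.84% of all genes, 6.6% lower and 2.24% higher. The control and neomycin values did not overlap for the same 4 genes, against 43.5% of all genes. Since all genes moved this often, the share of called members is not read as particular to these families.

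Gene positions given here are those of the GENCODE annotation of mm10. Upstream sequence, the bases before the first base of a RefSeq transcript (GRCm38.p6), was at hand for 6 of the 8 genes. It is shown for the 4 genes that passed the test, as 250 bases read 5′ to 3′ along the transcript. RefSeq starts can differ from the GENCODE positions. The Gfra1 window lies wholly inside the gene as placed by GENCODE, and the Ngfr window overlaps the 5′ end of its gene. Capitals mark every match, on either strand, to TGACG (the core of the cAMP response element, bound by CREB, given as CGTCA on the other strand), to the E-box CAGCTG or to GGGCGG (the GC box, CCGCCC on the other strand). For Bdnf, which has several alternative first exons, the third of 7 start sites is shown, at chr2:109692186-109692435 on the plus strand, because it alone of the 7 held TGACG.
Bdnf, start site 3: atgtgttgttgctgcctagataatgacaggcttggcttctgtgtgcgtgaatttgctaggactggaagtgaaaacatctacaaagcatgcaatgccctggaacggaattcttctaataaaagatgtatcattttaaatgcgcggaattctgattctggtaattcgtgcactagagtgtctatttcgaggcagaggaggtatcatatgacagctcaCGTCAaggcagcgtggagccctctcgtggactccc
Ngfr, chr11:95587699-95587948, minus strand: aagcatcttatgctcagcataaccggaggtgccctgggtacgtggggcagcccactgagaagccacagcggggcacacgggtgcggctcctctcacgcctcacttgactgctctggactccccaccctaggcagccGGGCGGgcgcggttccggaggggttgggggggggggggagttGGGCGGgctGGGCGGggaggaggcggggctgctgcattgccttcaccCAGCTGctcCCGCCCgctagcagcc
Ntrk2, chr13:58806319-58806568, plus strand: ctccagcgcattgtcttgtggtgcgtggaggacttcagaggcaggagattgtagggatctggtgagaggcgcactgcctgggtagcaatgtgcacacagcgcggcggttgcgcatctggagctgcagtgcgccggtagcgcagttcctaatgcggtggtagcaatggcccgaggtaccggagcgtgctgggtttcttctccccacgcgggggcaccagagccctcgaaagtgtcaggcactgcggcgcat
Gfra1, chr19:58455399-58455648, minus strand: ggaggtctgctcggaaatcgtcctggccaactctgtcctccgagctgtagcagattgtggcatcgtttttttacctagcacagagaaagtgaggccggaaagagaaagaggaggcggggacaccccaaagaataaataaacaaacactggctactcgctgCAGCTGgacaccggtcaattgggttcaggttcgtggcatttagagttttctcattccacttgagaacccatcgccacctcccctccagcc
The Bdnf window held 1 TGACG and was chosen for it, so nothing is read from the match. Of the other Bdnf windows, start site 2 held 2 GC boxes, start site 4 held 1 GC box and start site 5 held 1 CAGCTG. Ngfr held 4 GC boxes and 1 CAGCTG, and Gfra1 held 1 CAGCTG. No match was marked for Ntrk2. Over all 32851 such windows TGACG was present in 17.8%, the GC box in 32.7% and CAGCTG in 13.0%. None of the marked matches overlapped another. A match is a string of letters and not a measured site, and counts per gene do not tell which Bdnf start was used.

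Bdnf encodes brain-derived neurotrophic factor, the main ligand of TrkB, and spans chr2:109674700-109727007 on the plus strand. Its level in CPM (counts scaled to a common library size by the TMM method) was 13.9, 17.4 and 15.9 in control samples 1, 2 and 3 and 8.02, 6.97 and 7.21 in neomycin samples 1, 2 and 3. Every neomycin sample lay far below every control sample. The means were 15.7 ± 1.72 CPM and 7.40 ± 0.553 CPM (SD, n = 3 each), a 2.13-fold fall. On the log2 scale the change was -1.09 (SE 0.12, 95% confidence interval -1.35 to -0.83, adjusted p = 6.96e-05). Of the genes tested, 584 (3.65%) had a lower log2 fold change than Bdnf, 13 of the 20 genes on a list of HC markers among them. In the annotation 896 bp of its exons, 14.4% of their length, are shared with the antisense gene Gm45346, which has no row in the table. The strand setting of the counting is not given in the sources used here, so reads of the antisense gene, if any, cannot be told apart from those of Bdnf.

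Ntf3, which encodes NT-3, the ligand of TrkC, lies at chr6:126101412-126166910 on the minus strand. It stood at 17.3, 20.0 and 22.4 CPM in the control samples and 19.0, 21.5 and 19.9 CPM after neomycin. The groups overlapped entirely, with means of 19.9 ± 2.56 and 20.1 ± 1.22 CPM. The log2 fold change was 0.02, with an interval from -0.21 to 0.25 (adjusted p = 0.911), which leaves out a fall of the size measured for Bdnf. Its sign turned with the processing, to -0.05 when libraries were scaled by their totals, -0.20 with the trend on exon length removed (adjusted p = 0.124), -0.07 without control sample 1 and -0.03 without neomycin sample 2.

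The balance of the 2 neurotrophins was compared as the ratio of Ntf3 to Bdnf counts within each library, which does not depend on library scaling. The ratio was not corrected for the trend on exon length. With that trend removed, the log2 fold changes were -0.20 for Ntf3 and -1.0 for Bdnf. Control samples 1, 2 and 3 gave ratios of 1.24, 1.15 and 1.41, and the neomycin samples gave 2.37, 3.08 and 2.77. The ratio of counts was thus higher in all 3 neomycin samples, by 2.16-fold, or 1.11 on the log2 scale. In an exact two-sided permutation test p was 0.1, the smallest value that 3 samples against 3 can give, and 0.3 after Benjamini-Hochberg adjustment over the 3 ratios compared, so this test cannot reach 0.05.

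Gdnf, at chr15:7810846-7837575 on the plus strand, was read at 5.01, 4.54 and 5.68 CPM in the control samples and at 2.88, 5.17 and 4.02 CPM after neomycin. Neomycin sample 2 fell within the control range and the other two lay below it. The means were 5.08 ± 0.569 and 4.02 ± 1.14 CPM, and the log2 fold change of -0.33 had an interval from -0.78 to 0.12 (adjusted p = 0.246). These values rest on 153 to 346 counts per sample, and the interval includes both no change and a fall of the size measured for Ngfr.

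**Figure D1:**
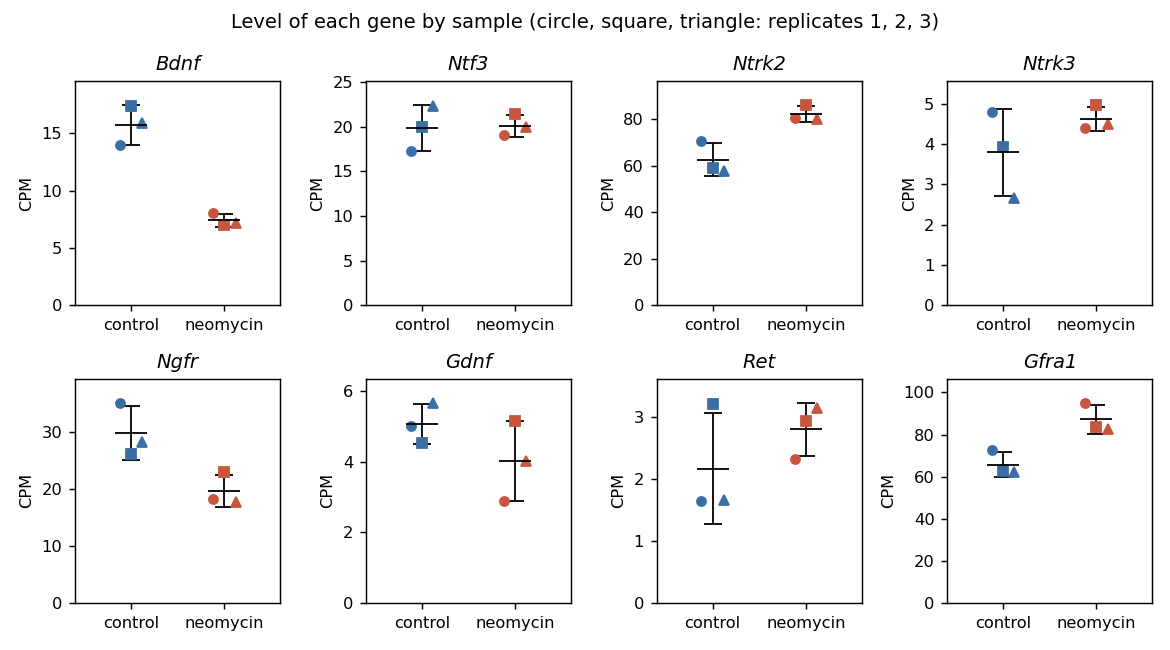
CPM (TMM scaled, vertical axes starting at 0) of the 8 genes in each of the 3 control (blue) and 3 neomycin (red) samples, with the group mean and SD. Bdnf and Ngfr are lower in every neomycin sample than in any control sample, Ntrk2 and Gfra1 are higher, and the groups overlap for Ntf3, Ntrk3, Gdnf and Ret.

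Among the neurotrophin receptors, Ntrk2 (TrkB, the receptor of BDNF, chr13:58806569-59133970, plus strand) was read at 70.7, 58.9 and 57.8 CPM in the control samples. After neomycin it stood at 80.2, 86.0 and 79.8 CPM, above each control sample. The means were 62.4 ± 7.14 and 82.0 ± 3.45 CPM, a rise of 31.3%. The log2 fold change was 0.39 (SE 0.085, interval 0.21 to 0.58, adjusted p = 0.00545). With the trend on exon length removed it was 0.67 (adjusted p = 5.71e-05), over 1.5-fold, and the exons of Ntrk2 add up to 19292 bp. Ligand and receptor of this pair thus moved in opposite directions, Bdnf down and Ntrk2 up. Counts per gene do not separate the kinase form of TrkB from its truncated form, and 10 transcripts are annotated.

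Ntrk3 (TrkC, the receptor of NT-3, chr7:78175959-78738012, minus strand) was low in both groups. Its CPM values were 4.80, 3.93 and 2.65 in the control samples and 4.41, 4.97 and 4.49 in the neomycin samples. The ranges overlapped, and control sample 3 was the lowest of the 6. The means were 3.79 ± 1.08 and 4.62 ± 0.303 CPM, with a log2 fold change of 0.28 and an interval from -0.17 to 0.73 (adjusted p = 0.334). With the trend on exon length removed, the change was 0.63 and passed the test (adjusted p = 0.0215). Its exons are the longest of the 8 genes, with 30170 bp in all. The ratio of Ntrk3 to Ntrk2 counts within a library ranged from 0.0459 to 0.0679 in the control samples and from 0.0549 to 0.0578 in the neomycin samples, a log2 difference of -0.07 (exact two-sided permutation p = 0.9, adjusted p = 1.0 over 3 ratios).

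Ngfr (p75, chr11:95568818-95587735, minus strand) had CPM values of 35.2, 26.2 and 28.2 in the control samples. The neomycin samples gave 18.3, 23.0 and 17.8 CPM, each below the lowest control sample, although neomycin sample 2 came close to control sample 2. The means were 29.9 ± 4.75 and 19.7 ± 2.85 CPM, a 1.52-fold fall. The log2 fold change was -0.60 (SE 0.127, interval -0.88 to -0.33, adjusted p = 0.00477). This sits close to the fold limit: the change was -0.58 with upper quartile scaling, -0.46 without control sample 1, -0.55 without neomycin sample 1 and -0.53 without neomycin sample 3, each under 1.5-fold while still at an adjusted p under 0.05.

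Gfra1, the co-receptor of GDNF, lies at chr19:58235604-58455909 on the minus strand. It was measured at 72.5, 62.4 and 62.0 CPM in the control samples and at 95.1, 83.7 and 82.8 CPM after neomycin. All neomycin samples exceeded all control samples. The means were 65.7 ± 5.92 and 87.2 ± 6.84 CPM, a rise of 32.8%, and the log2 fold change was 0.41 (SE 0.0844, interval 0.23 to 0.59, adjusted p = 0.00421). An antisense gene, Gm16277, shares 416 bp (7.60%) of its exons and is not counted in the table. Ret, at chr6:118151745-118197718 on the minus strand, gave only 93 to 173 counts per sample. Its CPM values were 1.64, 3.20 and 1.66 for control and 2.32, 2.93 and 3.15 for neomycin, and control sample 2 was the highest of all 6. The log2 fold change was 0.38, close to that of Ntrk2, but its SE of 0.282 gave an interval from -0.23 to 0.99 (adjusted p = 0.338). The ratio of Ret to Gfra1 counts was between 0.0226 and 0.0513 in the control samples and between 0.0244 and 0.0380 after neomycin (log2 difference 0.02, exact two-sided permutation p = 1.0, adjusted p = 1.0 over 3 ratios).

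**Figure D2:**
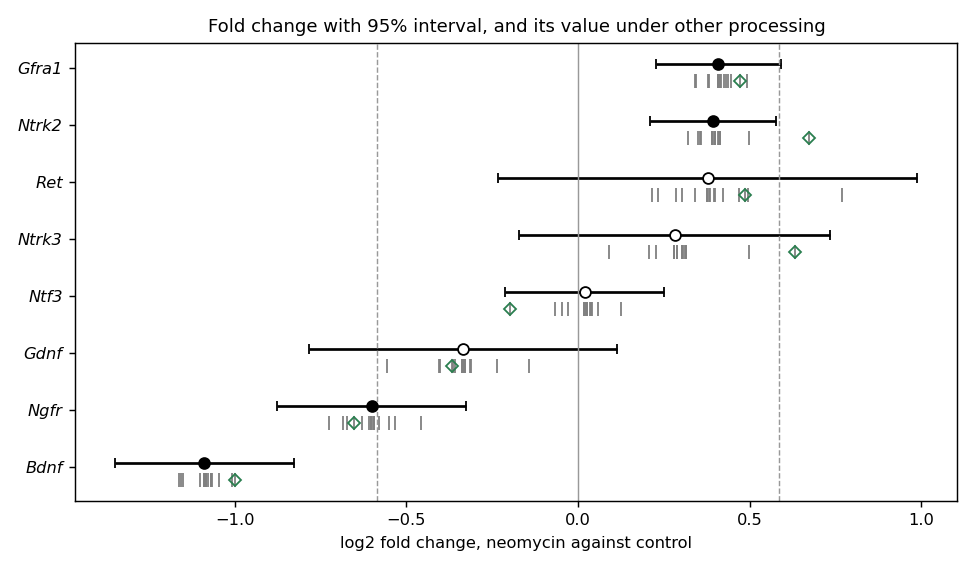
Log2 fold change of neomycin against control for the 8 genes, with edgeR's estimate and 95% confidence interval in black (filled where the adjusted p is under 0.05), the alternative settings as grey ticks, the exon length correction as green open diamonds, and dashed lines at 1.5-fold. Bdnf at -1.09 and Ngfr at -0.60 lie below the lower dashed line, Ntrk2 at 0.39 and Gfra1 at 0.41 stay within the lines, and the interval includes 0 for the other four.

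**Figure D3:**
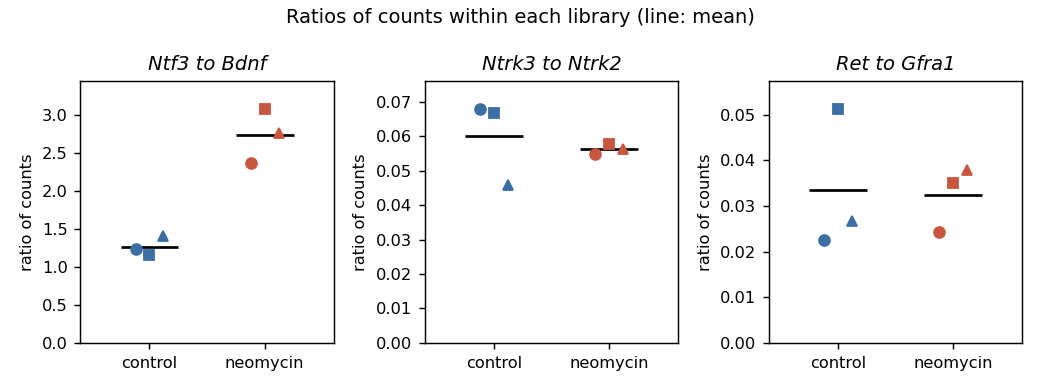
Ratio of counts within each library (vertical axes starting at 0) for Ntf3 to Bdnf, Ntrk3 to Ntrk2 and Ret to Gfra1 in the control (blue) and neomycin (red) samples, with a line at the mean. The Ntf3 to Bdnf ratio runs from 1.15 to 1.41 in the control samples and from 2.37 to 3.08 after neomycin, while the other ratios overlap between groups.

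To set the genes beside each other, levels were divided by exon length. In the control samples Gfra1 led with 12.0 ± 1.08 CPM per kb, followed by Ntf3 with 11.6 ± 1.49 and Ngfr with 8.67 ± 1.38 CPM per kb. Gfra1 and Ntf3 overlapped, as did Ntf3 and Ngfr. Below them came Ntrk2 with 3.24 ± 0.370, Bdnf with 2.53 ± 0.277, Gdnf with 1.38 ± 0.155, Ret with 0.320 ± 0.133 and Ntrk3 with 0.126 ± 0.0358 CPM per kb, none overlapping its neighbour. The signalling receptors Ret and Ntrk3 were thus the lowest of the 8 on this scale, far under the co-receptor Gfra1. The order of means was the same after neomycin, with Gfra1 at 15.9 ± 1.25 and Ntf3 at 11.8 ± 0.714 CPM per kb now apart, and Bdnf at 1.19 ± 0.0890 and Gdnf at 1.10 ± 0.311 CPM per kb now overlapping. With the longest transcript as the length instead, Ntrk2 (7.14 CPM per kb) overlapped Ngfr (8.67 CPM per kb) in the control samples, and Ntf3 and Ngfr did not overlap. On that length Ntrk2 (9.38 CPM per kb) ranked above Ngfr (5.72 CPM per kb) after neomycin, and Bdnf and Gdnf did not overlap.

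Markers of the cell types in the explant moved as well, and in bulk samples fewer cells of a type and less RNA per cell cannot be told apart. Of 20 HC markers 19 fell, against 16.1% of all genes, with a median log2 fold change of -1.80. Their summed level went from 1240 to 1447 CPM in the control samples to 508 to 601 CPM after neomycin. Much of the sum after neomycin was Calb1, at 193 CPM on average (log2 fold change -0.56), and Myo6, at 164 CPM (-0.36). The largest fall of the 20 was that of Slc26a5, the outer HC motor protein prestin, with a log2 fold change of -3.99. Pou4f3, an HC transcription factor, had -2.17. Atoh1, another HC transcription factor, was the 1 marker without a call (-0.05, adjusted p = 0.9). Of 18 SC markers 5 rose and 3 fell, against 12.9% and 16.1% of all genes, with a median log2 fold change of 0.13. Their summed level was 12520 to 14490 CPM in the control samples and 16220 to 19170 CPM after neomycin. Much of that sum was Tectb, a tectorin gene, at 4230 CPM on average in the control samples and 6445 CPM after neomycin (0.61, adjusted p = 0.0138), and Epyc at 5531 and 6385 CPM (0.21, adjusted p = 0.132). The connexin gene Gjb6 was another that rose (0.42, adjusted p = 0.000956). The receptor gene Fgfr3, which marks pillar and Deiters cells, was one that fell (log2 fold change -0.66, adjusted p = 0.000129), and Prox1 was another (-1.46, adjusted p = 0.00198). Of 17 neuronal markers tested 2 rose and 4 fell, against 12.9% and 16.1% of all genes, with a median log2 fold change of -0.35. All 4 that fell passed 1.5-fold, against 6.6% of all genes, and the difference from all genes was not tested. The summed levels of the list overlapped, with 405 to 510 CPM in the control samples and 403 to 456 CPM after neomycin. The 4 that fell included Nefl, a neurofilament gene (-1.15), and Snap25, a synaptic protein gene (-1.01). The 2 that rose were Syt1, which encodes a synaptotagmin (0.37, adjusted p = 0.0346), and the transcription factor gene Isl1 (0.27, adjusted p = 0.0302). Isl1 was the largest part of the neuronal sum, at 130 CPM on average in the control samples and 158 CPM after neomycin. Neurod1, a marker of young neurons, had at most 3 counts in every sample. Control sample 1 had the highest summed levels of neuronal, Schwann cell and mesenchymal markers and also the highest Ngfr, Ntrk2 and Gfra1 among the control samples.

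The remaining lists differed in extent. Over all genes 12.9% rose and 16.1% fell, and the differences of these lists from all genes were not tested. Of 14 Schwann cell and glial markers 1 rose and 2 fell, with overlapping sums (678 to 754 against 704 to 725 CPM). Of 12 markers of mesenchyme and fibrocytes 3 rose and 3 fell, with sums of 6333 to 6981 CPM in the control samples and 7392 to 7437 CPM after neomycin. Among the 3 that rose were Otos (means of 85.3 and 550 CPM, log2 fold change 2.69) and Dcn (840 and 1306 CPM, 0.64). Among the 3 that fell were Col3a1 (1316 and 951 CPM, -0.47) and Col1a1 (27.1 and 11.8 CPM, -1.20). Macrophage markers rose in 4 of 10 cases (sums of 81.0 to 102 against 109 to 137 CPM), and 7 of 10 endothelial markers fell, with a median log2 fold change of -1.94. The summed endothelial level overlapped between the groups (286 to 321 against 269 to 320 CPM) because most of it was 1 gene, Emcn, at 252 ± 12.1 and 273 ± 26.2 CPM (0.12, adjusted p = 0.329), while Pecam1 fell by 2.71 and Cdh5 by 2.05 on the log2 scale. The part of these shifts in the changes of Bdnf, Ngfr, Ntrk2 and Gfra1 was not tested.

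**Figure D4:**
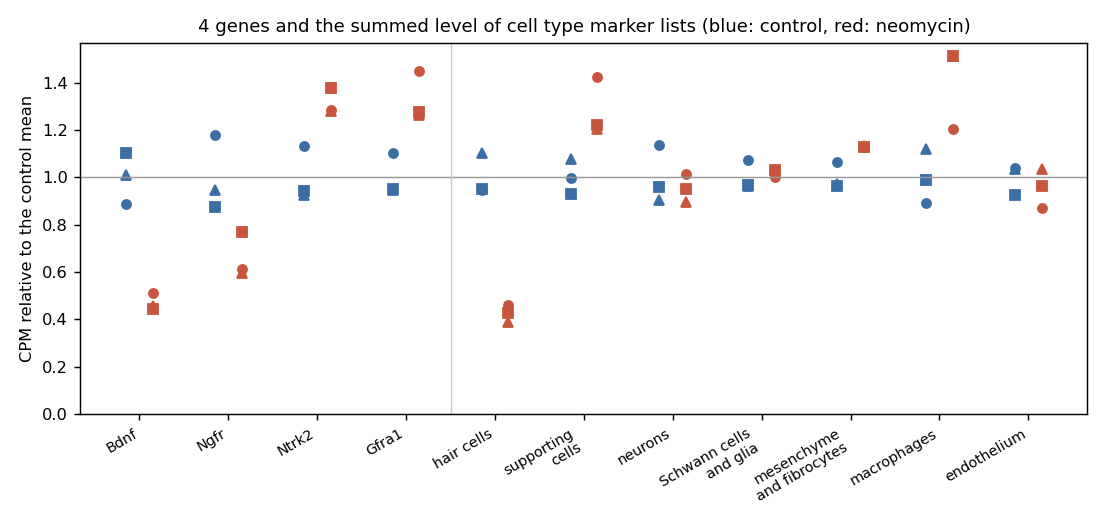
Level in each sample relative to the control mean for Bdnf, Ngfr, Ntrk2 and Gfra1 and for the summed CPM of 7 cell type marker lists (blue control, red neomycin, with a symbol for each replicate). Summed HC markers fall to 0.423 of the control level. Much of their neomycin sum is Calb1 and Myo6, which fell by less than the list median of -1.80. Summed SC markers rise to 1.28, a sum made up largely of Tectb and Epyc. Neuronal and Schwann cell sums lie near 1, as does the endothelial sum, most of which is the gene Emcn.

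By Pearson correlation of log2 CPM over the 6 samples, among 14028 genes with a mean of at least 1 CPM, the genes most like Bdnf were Rangap1 (r = 0.999) and Trib1 (r = 0.998). For Ngfr they were Ache, the acetylcholinesterase gene, and Mast3 (r = 0.993 each). For Ntrk2 they were Pbx4 (r = 0.997) and Trdn (r = 0.994), and for Gfra1 they were Lrrtm4 (r = 0.995) and Antxr1 (r = 0.994). Correlation does not measure the size of a change. The log2 fold change was -0.20 for Rangap1 and -0.38 for Trib1, against -1.09 for Bdnf. It was -0.93 for Ache, -0.31 for Mast3, 0.49 for Pbx4, 0.64 for Trdn, 0.99 for Lrrtm4 and 0.28 for Antxr1. The correlations largely carry the difference between the groups that the libraries share, and are given as a description.

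The other ligands and receptors of both families came next. Of 13 listed, 10 were tested, with a median log2 fold change of 0.10 against -0.00 for all genes, and 2 rose, against 12.9% of all genes. Nrtn, which encodes neurturin, a GDNF relative, went from 11.1, 11.9 and 12.9 CPM to 14.4, 17.1 and 17.9 CPM, with means of 12.0 ± 0.922 and 16.5 ± 1.84 CPM (log2 fold change 0.46, adjusted p = 0.00962). Its change was 0.13 (adjusted p = 0.326) with the exon length trend removed and 0.18 (adjusted p = 0.194) with the GC content trend removed. Gfra4, the co-receptor of persephin, rose from 1.37 ± 0.318 to 2.32 ± 0.163 CPM (0.75, adjusted p = 0.0425), and kept its call in 9 of 16 alternatives. The call of Gfra4 was lost when any of control samples 1 and 2 or neomycin samples 1, 2 and 3 was left out, with adjusted p of 0.0898, 0.154, 0.0969, 0.109 and 0.0746 in that order. The 2 calls of this list became 1 without control sample 2, neomycin sample 1 or neomycin sample 2. Ntf5, which encodes neurotrophin-4 (0.12, adjusted p = 0.574), Artn (-0.45, adjusted p = 0.0546) and Gfra2 (0.38, adjusted p = 0.172) did not pass. Gfra3 and Gfral were among the genes not tested. Gfra3, the artemin co-receptor, was uneven within the neomycin group, with 44, 40 and 1 counts against 8, 2 and 7 in the control samples.

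Of 20 tested genes that process, sort or partner neurotrophins and p75, 6 fell and 2 rose, with a median of -0.20. Over all genes 16.1% fell and 12.9% rose, and the difference from the list was not tested. Sorcs3, a receptor of the sortilin family, rose from 8.16, 4.70 and 5.78 CPM to 10.4, 9.80 and 10.3 CPM (0.70, adjusted p = 0.0107), the one gene of this list past 1.5-fold. Among those that fell were Sort1, which encodes sortilin, the partner of p75 in binding proneurotrophins (-0.27, adjusted p = 0.0177), Sorl1 (-0.45, adjusted p = 0.0147) and Furin, which encodes a protease that cleaves proneurotrophins (-0.27, adjusted p = 0.0122). Sorcs3 kept its call in all 16 alternatives, while Sort1, Sorl1 and Furin kept theirs in 12, 11 and 13 of 16. The 8 calls became 4 without control sample 1, 3 without control sample 2, 5 without neomycin sample 1, 1 without neomycin sample 2, 3 without neomycin sample 3 and 4 with the exon length trend removed.

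Of 25 adaptors of Trk and RET signalling tested, 11 fell, with a median of -0.24, against 16.1% of all genes. The list was chosen with earlier results of these data known, and the difference from all genes was not tested. Shc4, an adaptor of the Shc family, fell from 29.6, 29.9 and 25.8 CPM to 17.2, 17.0 and 17.7 CPM, a log2 fold change of -0.72 (SE 0.0897, adjusted p = 0.000185). Shc3, the neuronal Shc protein, was low, with means of 1.13 ± 0.368 and 0.496 ± 0.137 CPM (-1.18, adjusted p = 0.0369). Its call was lost without control sample 1 (adjusted p = 0.194) or 2 (0.0625) and without neomycin sample 1 (0.0698), 2 (0.0595) or 3 (0.125). Gab2, a docking protein (-0.55, adjusted p = 0.000721), and Plcg1, which encodes the phospholipase that binds activated Trk receptors (-0.47, adjusted p = 0.00306), fell by less than 1.5-fold. The 11 calls became 4 without control sample 1, control sample 2 or neomycin sample 3, 5 without neomycin sample 2, and 6 with the exon length trend removed.

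Genes that respond to activity, growth factors or neurotrophins fell in 6 of 12 tests, 5 of them past 1.5-fold, with a median of -0.43, against 16.1% and 6.6% of all genes. This list too was chosen with earlier results known, and its difference from all genes was not tested. Vgf, a secreted neuropeptide precursor inducible by neurotrophins, stood at 7.22, 7.73 and 3.99 CPM in the control samples and 2.75, 2.02 and 3.22 CPM after neomycin (-1.25, SE 0.252, adjusted p = 0.00377). The ETS factor Etv5 fell from 56.2 ± 3.15 to 33.4 ± 0.937 CPM (-0.75, adjusted p = 2.75e-05), and its relative Etv4 by 0.79 on the log2 scale (adjusted p = 0.00107). The feedback inhibitors of ERK signalling Spry4 (-0.94, adjusted p = 0.000683) and Dusp6 (-0.81, adjusted p = 0.000303) also fell. Nr4a1, an immediate early gene, fell by less than 1.5-fold (-0.47, adjusted p = 0.0126). The inhibitor gene Spry2 (-0.08, adjusted p = 0.519) did not pass. Nor did the immediate early genes Egr1 (-0.06, adjusted p = 0.704) and Arc (-0.10, adjusted p = 0.713). Also without a call were Junb (-0.19, adjusted p = 0.387), Fos (-0.31, adjusted p = 0.148) and Egr2 (-0.38, adjusted p = 0.13). Etv4, Etv5, Spry4 and Dusp6 are known to respond to fibroblast growth factor receptors as well as to Trk and RET. Vgf, Etv5, Etv4, Spry4 and Dusp6 kept their calls in all 16 alternatives, and Nr4a1 kept its call in 14 of 16.

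**Figure D5:**
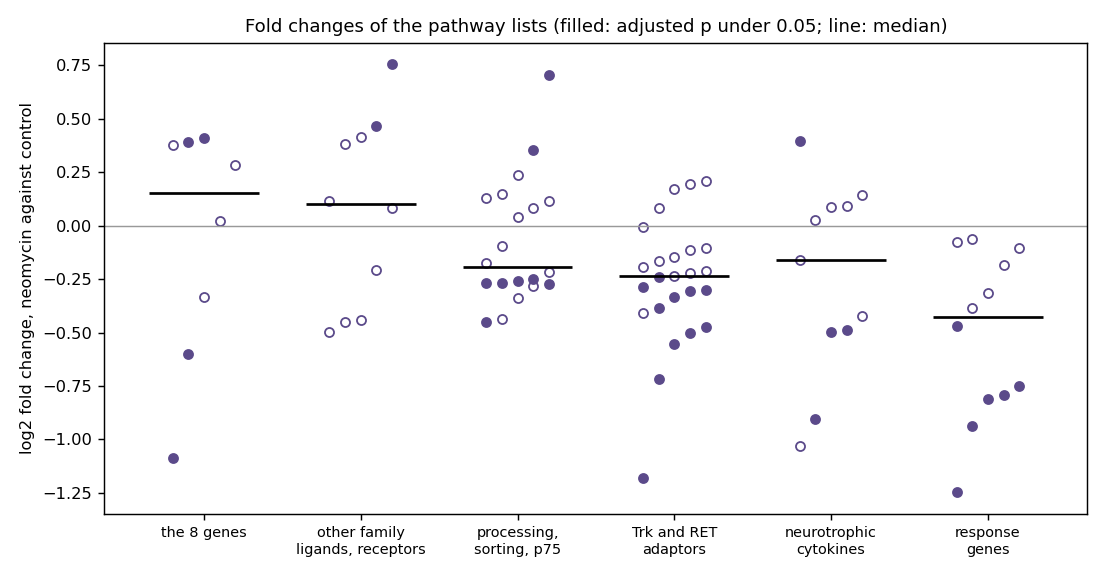
Log2 fold change (vertical axis) of the tested genes among the 8 genes and in each pathway list, as points filled where the adjusted p is under 0.05, with a line at the median. Adaptor and response genes lie mostly below 0 (medians -0.24 and -0.43), whereas other family ligands and receptors have a median of 0.10.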

How the data were processed

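RNA was measured in 6 pooled samples of mouse cochlear explants, 3 control and 3 neomycin. The authors called bases with CASAVA 1.8, trimmed reads with Trimmomatic 0.23, aligned them to mm10 with HISAT2 and counted them per gene with HTSeq. They deposited raw counts, without normalization. The strand setting and the handling of reads matching several places are not given in the sources used here. Total counts ran from 50471116 to 66068108 per sample, and the 10 largest genes took 6.19% to 6.97% of them. Samples of a group differed by more than sampling noise (mean chi-square per gene 13.7 to 46.7).

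Libraries were scaled by TMM and genes filtered with filterByExpr in edgeR 4.0.16 (R 4.3.3). The comparison was edgeR's quasi-likelihood test with Benjamini-Hochberg adjustment over all 15988 genes tested. Differential expression required an adjusted p under 0.05 and a fold change over 1.5. The members and gene lists were chosen with earlier results of these data known. The genes named are the 8 members, genes of the lists and the 2 genes most correlated with each called member. Ratios used counts plus 0.5 and exact permutation tests in scipy 1.17.1. Gene positions and exon lengths came from GENCODE, which matched 23376 symbols directly and 667 through an older symbol. Start sites and upstream sequence came from RefSeq, for 6 members. Alternatives were DESeq2 1.42.0, limma-voom (limma 3.58.1), other scalings, filters and thresholds, a replicate block, each sample left out, and removal of trends on exon length or GC content (lowess, span 0.3). Many genes of the lists are counted without being named. The code was tested on simulated data. Figures were drawn with matplotlib 3.10.9.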

Additional observations from a re-analysis of the deposited data

How the results depend on the processing

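Bdnf, Ntrk2, Ngfr and Gfra1 kept their direction and an adjusted p under 0.05 in all 16 alternatives, with log2 fold changes from -1.16 to -1.0, 0.32 to 0.67, -0.73 to -0.46 and 0.34 to 0.49. Ntf3 turned sign with library total scaling (-0.048) and exon length correction (-0.20), and ran from -0.068 to 0.12 with a sample left out. Ntrk3 passed at 0.63 with exon length correction. The members called at 1.5-fold numbered 1 with upper quartile scaling, 4 with exon length correction and 4 with no fold threshold (all genes 4629 against 1413), and 1 to 2 with a sample left out. Of the other ligands and receptors 4 passed with DESeq2, 4 with the replicate block, 1 with exon length and 1 with GC correction. With exon length correction the processing list had 4 calls and a median of -0.12 (-0.27 with library totals), and the adaptor list 6 calls and a median of -0.14 (-0.31 with library totals). With a sample left out, calls ran from 1 to 3 among other ligands and receptors, 1 to 9 in processing, 4 to 12 in adaptors and 1 to 4 among other cytokines, whose median ran from -0.41 to 0.011. Of the ratios, Ntrk3 to Ntrk2 ran from -0.26 to 0.023 and Ret to Gfra1 from -0.22 to 0.38. Ntf5 ran from -0.022 to 0.22 with a sample left out, below 0 without neomycin sample 3, and Gas1 turned to -0.0052 with exon length correction. The cause of these shifts was not tested.

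Same-numbered samples correlated at 0.165, 0.0264 and 0.0949 in their deviations, and differently numbered samples at -0.129 to 0.0325. No label pairs the samples, and with 3 samples per group these values cannot decide whether the numbers do. The replicate block left Bdnf at -1.09, raised the adaptor calls from 11 to 17, and not every sample correlated best with its own number. The alternative that leaves out a sample assumes that the remaining pair varies like the other group. Ret, Gdnf and Ntrk3, the members with the fewest counts, had intervals wider than the changes measured, and their counts also varied between samples of a group.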

Other observations

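Other neurotrophic cytokines and their receptors, outside the neurotrophin and GDNF families, were also measured. Of 11 genes tested 3 fell and 1 rose, against 16.1% and 12.9% of all genes. The median log2 fold change was -0.16. Lif, which encodes leukemia inhibitory factor, stood at 8.61, 14.8 and 9.18 CPM in the control samples and at 5.20, 4.54 and 7.69 CPM after neomycin, with no overlap. Its log2 fold change was -0.90 (adjusted p = 0.0114), and the call was lost without control sample 2 (-0.61, adjusted p = 0.071) or neomycin sample 2 (-0.75, adjusted p = 0.0612). Il6st, which encodes gp130, the receptor subunit shared by this cytokine family, fell from 147 ± 18.7 to 105 ± 9.03 CPM (-0.49, adjusted p = 0.00365). Manf, which encodes a neurotrophic factor of the endoplasmic reticulum, rose from 160.0 ± 23.4 to 210.4 ± 7.36 CPM (0.40, adjusted p = 0.00946). The 4 calls became 1 without control sample 2 and 2 without neomycin sample 2.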
